A study of Bos taurus with 34 samples.

Results

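The semaphorins, plexins and neuropilins are a family of guidance cues and their receptors. They were picked from the count table of a bovine RNA sequencing study by gene symbol: every symbol that starts with SEMA or PLXN, together with NRP1 and NRP2. The RefSeq gene table holds 31 such genes, of which 29 had at least 1 row among the 21541 genes with a row. These 29 genes were spread over 46 of the 38568 rows, and for each gene the row with the highest mean raw count was used. SEMA3F and SEMA3G were matched to no row and were not analysed here. By role the 29 genes are 5 secreted semaphorins, 13 membrane-bound semaphorins, 9 plexins and 2 neuropilins.

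The study sampled 5 adult nulliparous Holstein heifers, 10872, 10882, 11033, 11070 and 11110, killed 2 days after ovulation in a synchronised cycle. From each animal the inner lining was taken at the ampulla, which is the wide part of the oviduct that receives the egg, and in the uterus at 3 sites: upper horn, mid horn and body. Ampulla and horns were sampled on the side of ovulation (ipsilateral) and on the other side (contralateral), and the uterine body once per heifer by the sample labels. The 7 groups hold 5 libraries each, except the ipsilateral upper horn, which holds 4 because that of heifer 11110 was not analysed here. All animals had the same synchronisation and were untreated otherwise, and the sites of one heifer come from the same animal. "Endometrium" below stands for the 24 libraries of upper horn, mid horn and body, and "ampulla" for the other 10.

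Semaphorins carry a sema domain through which they bind plexins, and plexins pass the signal on through a cytoplasmic domain that acts on small GTPases of the Ras and Rap families. Most class 3 semaphorins, which are secreted, need a neuropilin as a co-receptor, whereas SEMA3E can bind PLXND1 directly, SEMA4C binds PLXNB2 and SEMA7A binds PLXNC1. The family was found through its role in steering nerve fibres, and it is also known for patterning blood vessels, shaping epithelia and positioning immune cells, while neuropilins additionally bind vascular endothelial growth factors.

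Libraries held between 11619486 and 30412782 counts, with a median of 20610132.5. Levels are given as CPM, counts scaled to the library total, after TMM scaling, the trimmed-mean correction for library composition. Each row is a single annotated transcript, and the sources used here do not say how reads shared between transcripts of a gene were handled. The 3 family genes with 1 annotated transcript, SEMA3E, SEMA4B and PLXND1, had a median of 165986 counts in all, from 2990 to 220096. The median was 294 for the 7 genes with 2 transcripts (0 to 6285). It was 141 for the 9 with 3 or 4 (1 to 76488), and 183 for the 12 with 5 or more (0 to 18529). These medians run over all 31 annotated genes and take SEMA3G, with 2 transcripts, and SEMA3F, with 5, as 0 counts. Levels are therefore compared between libraries for one gene, and never between genes. The tissue labels were checked against markers: all 7 measured ciliated and all 3 oviduct secretory epithelium genes were higher in the ampulla. All 9 endothelial and all 9 stromal genes were lower there, among them VIM with a median of 5.03 CPM against 3910 CPM in the endometrium. These lower genes do not check the labels. They show that the samples of the 2 regions differed widely in stromal and endothelial transcripts. In the contralateral mid horn of heifer 10882, KRT5, a keratin gene, stood at 454 CPM, while the other endometrial libraries ran from 0.111 to 40.5 CPM and the ampulla from 762 to 1681 CPM. The oviduct marker lists were raised there too. The summed oviduct secretory list stood at 819 CPM, against a median of 10.2 CPM over the endometrial libraries. The summed ciliated list stood at 491 CPM, against an endometrial median of 168 CPM, although a contralateral upper horn library reached 399 CPM. The fewest rows with a count were held by 2 contralateral libraries, the upper horn of heifer 11033 with 16049 and the ampulla of heifer 11070 with 15773. Without these 3 libraries 16 of the 19 tested genes were called between ampulla and endometrium, against 15 with them, and the other comparisons are given both ways where they change.

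Of the 29 genes with a row, 19 passed the low-count filter and were tested. The filter asked for about 0.485 CPM in at least 4 libraries, and 9 of the 19 met it through endometrial libraries alone: SEMA3A, SEMA3B, SEMA3D, SEMA5A, SEMA5B, SEMA6B, SEMA6C, PLXNB1 and PLXNB2. Such genes could enter the test only where the endometrium was high, so counts over the tested genes describe them and support no statement about the family. The remaining 10 genes were hardly counted in any library. NRP1 had 64 counts over all libraries (3 in ampulla, 61 in endometrium), SEMA4D 45, SEMA6A 40, PLXNA2 39, PLXNA1 32, SEMA4F 25 and SEMA6D 22. SEMA4A had 2 counts, and PLXNB3 and SEMA4G had 1 count each. These 10 genes were not tested. For NRP1, whose 3 ampulla counts were all in 1 library, the ratio of endometrium to ampulla was 6.82 with a 95% counting interval from 2.23 to 34, and a fit with no filter called it lower in the ampulla.

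Between ampulla and endometrium, 15 of the 19 tested genes were called at an adjusted p under 0.05 (edgeR), 2 of them higher in the ampulla and 13 lower. Over all 17241 rows tested, 64.9% were called, 29.4% higher and 35.6% lower. SEMA4B and SEMA3E were the 2 that rose. The median log2 fold change over the 19 genes was -1.24, beside -0.18 over all rows. In 3 genes, NRP2, PLXND1 and SEMA5A, no ampulla library overlapped with any endometrial library, which held for 11.7% of all rows. These are bulk samples, in which fewer cells of a type and less RNA per cell cannot be told apart.

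**Figure D1:**
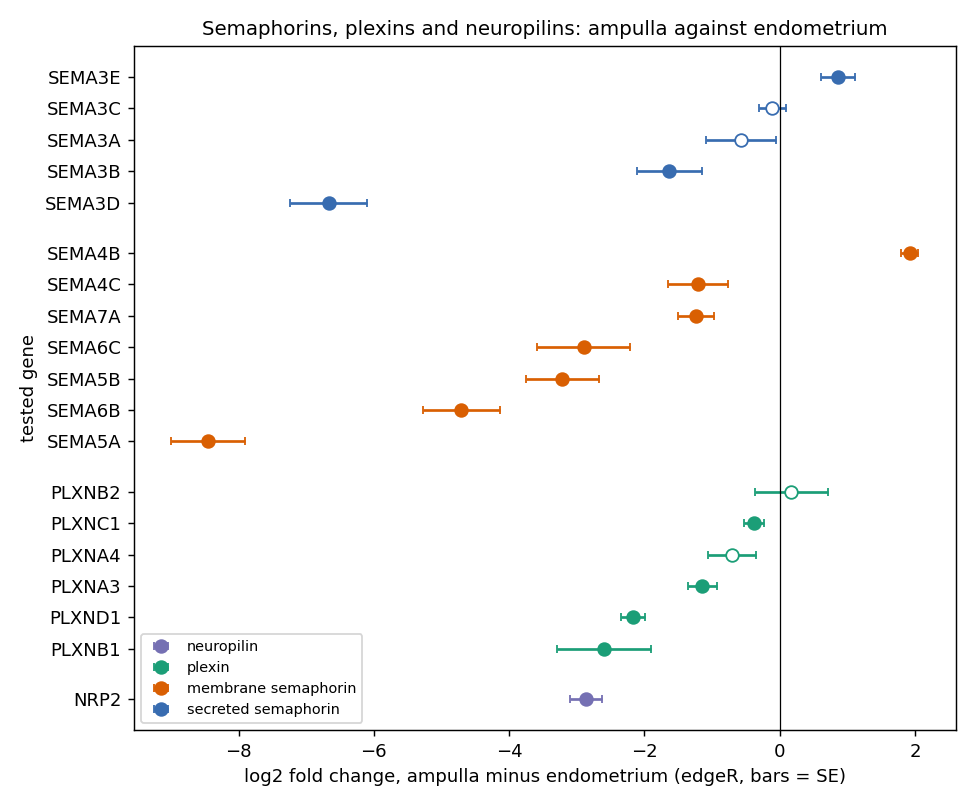
Log2 fold change between ampulla and endometrium for the 19 tested genes, grouped by role, with bars for 1 standard error; positive values are higher in the ampulla. SEMA4B at 1.92 and SEMA3E at 0.86 are the 2 called genes to the right of 0, and SEMA5A at -8.45 lies farthest to the left.

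All 5 secreted semaphorins with a row, of the 7 annotated, were tested. SEMA3E rose in the ampulla, SEMA3D and SEMA3B fell, and SEMA3A and SEMA3C did not pass the test. Over all rows 64.9% were called, 29.4% higher and 35.6% lower. SEMA3A, SEMA3B and SEMA3D met the filter through endometrial libraries alone, so the 3 of 5 called support no statement about the class. SEMA3D, a class 3 ligand that acts on endothelial and nerve cells, ran from 0 to 0.459 CPM in the ampulla (median 0.0217), without a count in 5 of 10 libraries. Its endometrial libraries ran from 0.193 to 21.5 CPM with a median of 7.46. The groups overlapped only through the contralateral upper horn of heifer 11033, the lowest endometrial library. The SEMA3D level fell by 6.67 ± 0.56 (SE) on the log2 scale (adjusted p = 6.66e-12) and was lower in the ampulla in 5 of 5 heifers.

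SEMA3E, the ligand of PLXND1, ran from 2.67 to 9.07 CPM in the ampulla (median 6.67) and from 0.866 to 12.1 CPM in the endometrium (median 2.94). The ranges overlapped widely, since the uterine body of heifer 10882 (12.1 CPM) and the ipsilateral upper horn of the same animal (10.4 CPM) lay above every ampulla library. SEMA3E was higher in the ampulla in 4 of 5 heifers, by 0.86 ± 0.26 on the log2 scale (adjusted p = 0.00416). The call rests on comparing sites within an animal: without the heifer as a replicate block the log2 fold change was 0.56, with an adjusted p of 0.196. It was also lost without heifer 11070 (0.52, adjusted p = 0.0928) and with ipsilateral samples alone (0.65, adjusted p = 0.0776).

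SEMA3C, a ligand that works through neuropilins and PLXND1 in the outflow tract of the heart, had much the same range in both regions. Its ampulla libraries ran from 50.7 to 151 CPM with a median of 96.7, and its endometrial libraries from 54.1 to 252 CPM with a median of 113. The log2 fold change was -0.11 ± 0.20 with an adjusted p of 0.645, and its sign changed to 0.056 without heifer 10872. SEMA3B, a class 3 ligand known as a growth suppressor in epithelial tumours, was thinly counted. Its ampulla libraries ran from 0 to 0.823 CPM with a median of 0.0841, and its endometrial libraries from 0.0505 to 1.22 CPM with a median of 0.399. SEMA3B fell by 1.63 ± 0.48 (adjusted p = 0.00377), in 5 of 5 heifers although single libraries of the regions overlapped, and the call was lost with ipsilateral samples alone (-0.79, adjusted p = 0.258). SEMA3A, the classical repellent of sensory axons, had 25 counts in the ampulla and 116 in the endometrium, with a log2 fold change of -0.57 and an adjusted p of 0.329.

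In the RefSeq annotation of assembly ARS-UCD2.0, SEMA3D, SEMA3A and SEMA3E are neighbours with 0 protein-coding genes between them, and SEMA3C follows after 6 others. These neighbours had unlike values between the regions: SEMA3D at -6.67, SEMA3A at -0.57 without passing the test, SEMA3E at 0.86 and SEMA3C at -0.11 without passing it.

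Of the 13 membrane-bound semaphorins 7 were tested, and all 7 were called, SEMA4B higher in the ampulla and the other 6 lower. Over all rows 64.9% were called, 29.4% higher and 35.6% lower. SEMA5A, SEMA5B, SEMA6B and SEMA6C met the filter through endometrial libraries alone, so this count supports no statement about the class. SEMA4B, a class 4 transmembrane semaphorin, ran from 245 to 852 CPM in the ampulla with a median of 529. Its endometrial libraries ran from 90.4 to 361 CPM with a median of 129. The regions touched only through the contralateral mid horn of heifer 10882 at 361 CPM, the library with the high KRT5; the next endometrial library stood at 201 CPM. Its means over the 5 heifers were 140 ± 27.0 CPM in the endometrium and 511 ± 130 CPM in the ampulla (SD). SEMA4B rose by 1.92 ± 0.12 on the log2 scale (adjusted p = 9.45e-15), in 5 of 5 heifers. Its log2 fold change stayed between 1.64 and 2.15 in the 14 alternatives run.

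SEMA5A, a class 5 semaphorin with thrombospondin repeats, was near absent from the ampulla counts. A single read was found there, in the contralateral ampulla of heifer 11110, and the other 9 ampulla libraries had none. The 24 endometrial libraries held 2201 counts and ran from 0.773 to 11 CPM with a median of 3.59. No library of the regions overlapped. The ratio of endometrium to ampulla was 739, with a 95% counting interval from 132 to 29192, and the adjusted p of the edgeR test was 1.32e-13. SEMA6B, a class 6 semaphorin, had 298 counts in the endometrium and 3 in the ampulla, a ratio of 33.3 with an interval from 11.3 to 163 (adjusted p = 1.28e-08). These intervals cover counting error only.

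SEMA5B and SEMA6C were also thin in the ampulla, with 10 counts each, against 284 and 172 in the endometrium. SEMA5B fell by 3.21 ± 0.54 (adjusted p = 5.58e-06) and SEMA6C fell by 2.90 ± 0.69 (adjusted p = 0.000484), both in 5 of 5 heifers. SEMA7A, which is tied to the membrane by a glycolipid anchor and acts on integrins and PLXNC1, was well counted in both regions. Its ampulla libraries ran from 0.68 to 6.4 CPM with a median of 2.8, and its endometrial libraries from 2.91 to 15.4 CPM with a median of 4.97. SEMA7A fell by 1.24 ± 0.27 (adjusted p = 0.000219), in 5 of 5 heifers, with the ranges overlapping. SEMA4C, a ligand of PLXNB2, ran from 0.677 to 11.7 CPM in the endometrium (median 2.67) against 0.0616 to 4.5 CPM in the ampulla (median 1.85). It fell by 1.21 ± 0.45 (adjusted p = 0.0186), and the call was lost without heifer 11033 (-1.08, adjusted p = 0.0655), without heifer 11110 (-0.87, adjusted p = 0.0651) and with the samples of either side alone. Another SEMA4C row, with 310 counts, had a log2 fold change of -0.74 with an adjusted p of 0.209.

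**Figure D2:**
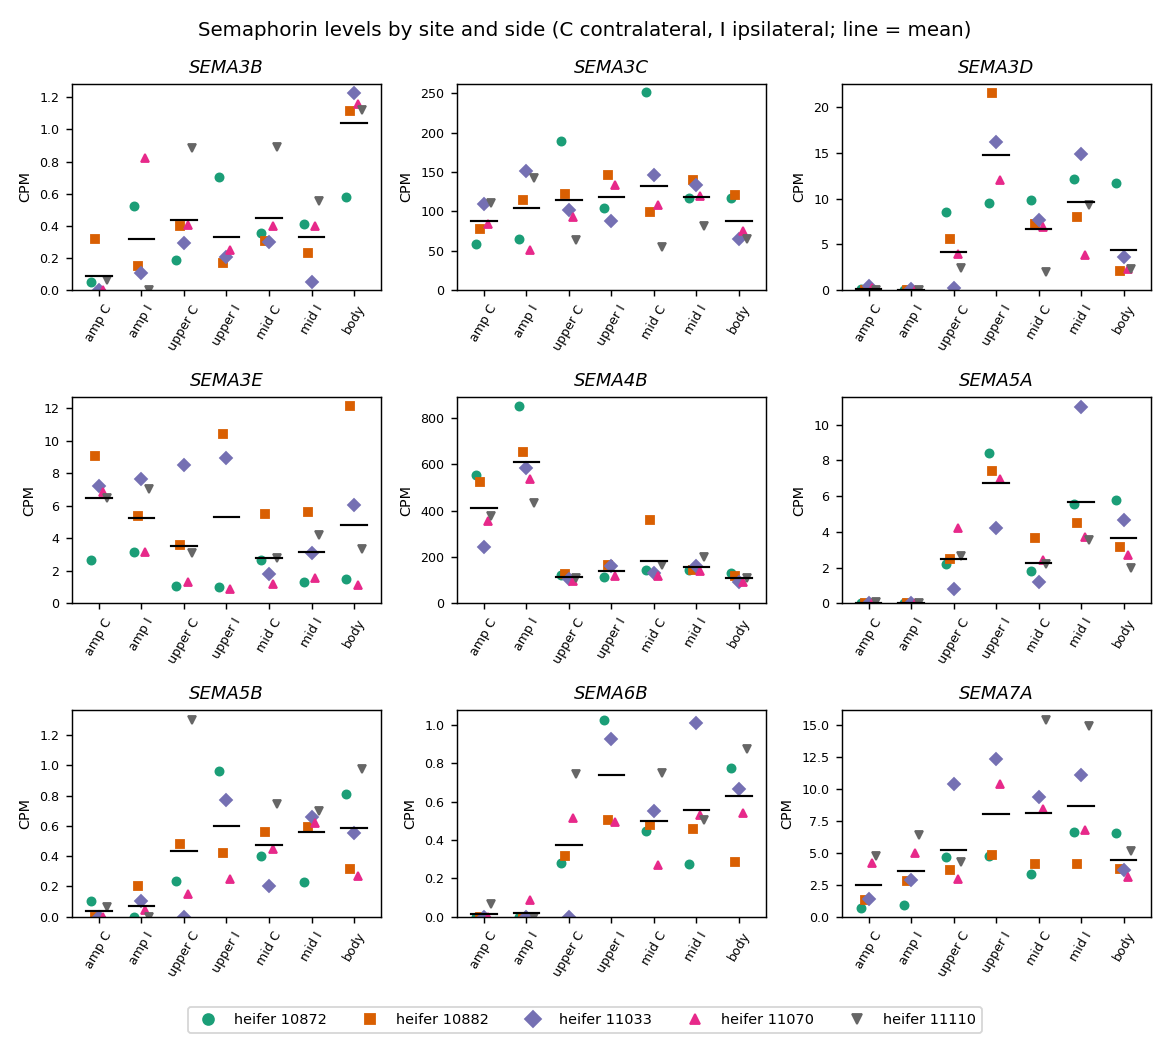
CPM of semaphorins by site and side, with 1 point per library, a marker for each heifer and a line at the group mean. SEMA4B lies between 245 and 852 CPM in the ampulla and, apart from the contralateral mid horn of heifer 10882 at 361 CPM, at most at 201 CPM in the endometrium, and SEMA5A stays at or near 0 there.

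Of the 2 neuropilins only NRP2 could be tested. NRP2, the co-receptor of several class 3 semaphorins and of VEGFC on lymphatic and venous endothelium, ran from 2.49 to 6.92 CPM in the ampulla with a median of 3.87. Its endometrial libraries ran from 8.71 to 78.9 CPM with a median of 32.6, so the regions did not overlap. The lowest endometrial values were both in heifer 11070, in the upper horn on the contralateral (8.71 CPM) and ipsilateral (13.1 CPM) side. Means over the 5 heifers were 34.3 ± 10.8 CPM in the endometrium and 4.49 ± 1.60 CPM in the ampulla (SD). NRP2 fell by 2.87 ± 0.24 on the log2 scale (adjusted p = 4.69e-12), in 5 of 5 heifers.

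Of 9 plexins, 6 were tested. PLXND1, PLXNA3, PLXNB1 and PLXNC1 fell in the ampulla, and PLXNA4 and PLXNB2 did not pass the test. Over all rows 64.9% were called, 29.4% higher and 35.6% lower. PLXNB1 and PLXNB2 met the filter through endometrial libraries alone, so the 4 of 6 called support no statement about the class. PLXND1, the receptor of SEMA3E that is best known from endothelial cells, ran from 21.6 to 126 CPM in the ampulla (median 92.4) and from 213 to 657 CPM in the endometrium with a median of 383. The regions did not overlap, and the means over the 5 heifers were 89.1 ± 23.4 and 387 ± 66.0 CPM (SD). PLXND1 fell by 2.17 ± 0.17 (adjusted p = 1.89e-12), in 5 of 5 heifers, and its log2 fold change stayed between -2.38 and -2.09 in the 14 alternatives run. The ligand SEMA3E rose and its receptor PLXND1 fell in this comparison.

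PLXNA3, a class A plexin that pairs with neuropilins, ran from 5.05 to 32.7 CPM in the ampulla (median 17.0) and from 19.6 to 81.8 CPM in the endometrium with a median of 31.9. It fell by 1.14 ± 0.22 (adjusted p = 3.43e-05), with overlapping ranges and in 5 of 5 heifers. PLXNB1, the receptor of SEMA4D, was sparse, with 14 counts in the ampulla and 170 in the endometrium. Its log2 fold change was -2.60 ± 0.69 (adjusted p = 0.00159), and the call was lost with ipsilateral samples alone (-1.08, adjusted p = 0.222). PLXNC1, the receptor of SEMA7A, differed little: its ampulla libraries ran from 10.7 to 18.9 CPM and its endometrial libraries from 11.3 to 32.7 CPM. PLXNC1 fell by 0.38 ± 0.15 (adjusted p = 0.0266), in 4 of 5 heifers. The PLXNC1 call was lost without heifer 10872 (adjusted p = 0.0630), 10882 (0.154) or 11070 (0.0646), without the filter and with the samples of either side alone.

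PLXNA4, a class A plexin that serves SEMA3A, ran from 1.25 to 43.2 CPM in the endometrium against 2.82 to 9.41 CPM in the ampulla, with a log2 fold change of -0.70 ± 0.35 and an adjusted p of 0.0767. The ampulla range lies inside that of the endometrium, and PLXNA4 was called in 7 of 14 alternatives, among them without heifer 11070 (-1.06, adjusted p = 0.0165) and without the 3 libraries that stood apart (-0.88, adjusted p = 0.0334). PLXNB2, the receptor of SEMA4C, had 70 counts in the ampulla and 187 in the endometrium. Its log2 fold change was 0.17 ± 0.54 (adjusted p = 0.795), and turned to -0.30 without heifer 10872 and to -0.048 without heifer 10882.

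**Figure D3:**
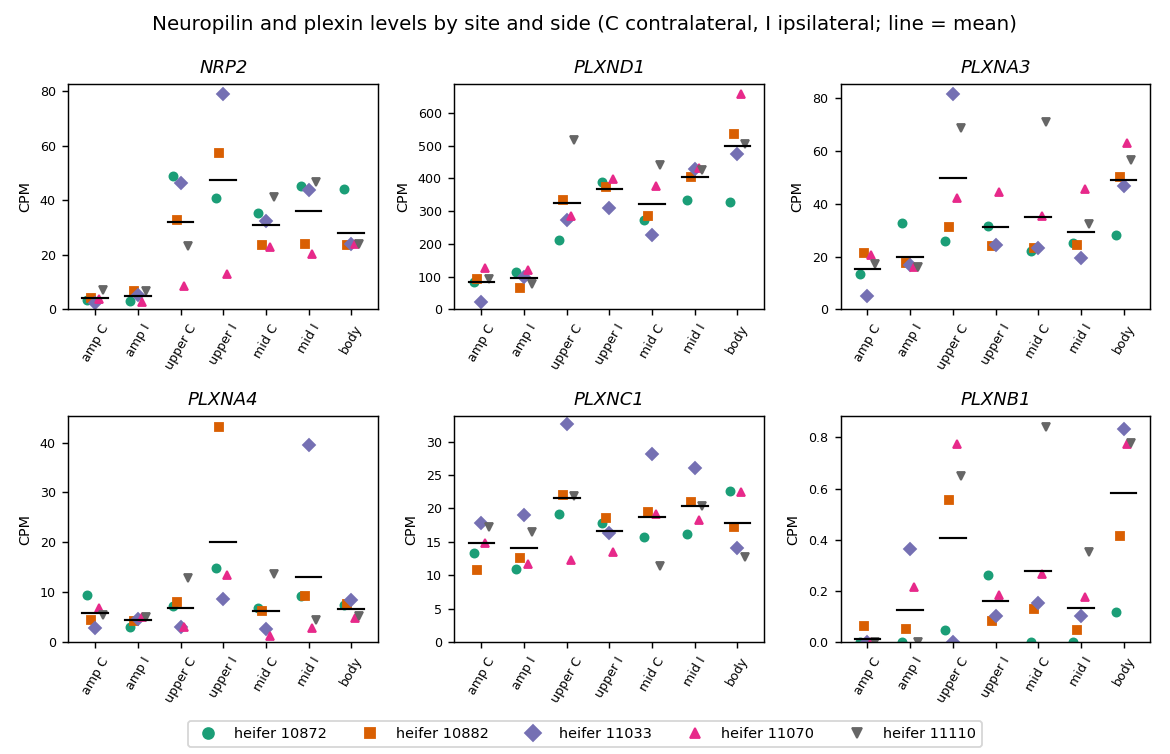
CPM of NRP2 and 5 plexins by site and side, with 1 point per library, a marker for each heifer and a line at the group mean. NRP2 and PLXND1 are lower in all ampulla libraries than in any endometrial library, and the heifers spread widely within a site for PLXNA4.

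The marker lists moved with these differences. The summed level of the endothelial list was 537 to 1193 CPM in the endometrium against 3.74 to 11.4 CPM in the ampulla, and CLDN5, CDH5, PECAM1, VWF and EGFL7 had no count in any ampulla library. The stromal list summed to 37954 to 86943 CPM in the endometrium against 44.1 to 134 CPM in the ampulla, with DCN, LUM, PDGFRA and PDGFRB at 0 in every ampulla library. Smooth muscle genes summed to 8.31 to 21.1 CPM and to 227 to 4641 CPM, with all 7 tested genes lower and ACTA2, MYH11, TAGLN and SMTN at 0 in the ampulla. Of 6 leukocyte genes 5 were lower in the ampulla, with PTPRC and CD68 at 0. Of 2 lymphatic genes 1 was lower. Of the nerve and Schwann cell genes, UCHL1 had no count in any ampulla library and S100B was higher in the ampulla. In the other direction, 6 of 8 general epithelium genes were higher in the ampulla and 1 was lower. The part of cell composition in the differences of NRP2, PLXND1, SEMA3D, SEMA5A and SEMA4B was not tested.

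The wider pathway was described by 4 lists, whose counts stand beside 64.9% of all rows called, 29.4% higher and 35.6% lower. Of the co-receptors and associated receptors, all 7 tested of 18 were called, 1 higher and 6 lower, with a median log2 fold change of -2.91. KDR, MST1R and ITGB1 had ampulla medians of 0.155, 0.182 and 0.179 CPM, below the filter level of about 0.485 CPM. Such genes could have met the filter through endometrial libraries alone. Counts and medians over the 4 lists therefore describe the tested genes and support no statement about a list. ERBB2, a receptor tyrosine kinase that pairs with plexins of class B, rose by 1.10 ± 0.11 in the ampulla. FLT1, a receptor for vascular endothelial growth factors that is also an endothelial marker, fell by 5.82 ± 0.19, and CNTN2, an axonal adhesion protein, fell by 4.14 ± 0.38. Of the cytoplasmic effectors, 26 of 41 were tested, 6 were higher, 9 were lower and 11 did not pass, with a median of -0.20. The 57.7% of effectors called, 23.1% higher and 34.6% lower, are near the shares over all rows, so the effectors named next are single genes and describe no shift of the list.

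RND1, a small GTPase that binds plexins, ran from 2.84 to 104 CPM in the endometrium against 31.4 to 135 CPM in the ampulla, and rose by 3.45 ± 0.38 (adjusted p = 5.41e-09). Both ranges overlapped. FARP2, an exchange factor for Rac that acts in SEMA3A signalling, rose by 1.84 ± 0.38. CRMP1, a mediator of SEMA3A signalling in axons, had 0 counts in the ampulla and 332 in the endometrium, which is at least 37.1-fold lower against a floor of 3 counts over the ampulla libraries. FYN, a kinase downstream of SEMA3A, fell by 2.99 ± 0.67.

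Of 5 other neuropilin ligands 4 were tested: VEGFD rose by 1.92 ± 0.39, VEGFB fell by 0.77 ± 0.25, VEGFC fell by 0.44 ± 0.19 and 1 did not pass. Of 7 proteases that process semaphorins 6 were tested, 4 lower and 2 not passing, with a median of -2.72. MMP14, a membrane metalloproteinase, fell by 5.46 ± 0.25, and PCSK5, a proprotein convertase, fell by 4.24 ± 0.24. Over all rows the median was -0.18.

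Within the uterus the differences were few. Between upper and mid horn no family gene was called by edgeR, beside 0.0174% of all rows (0.0116% higher and 0.0058% lower); 1 of the 19 had an unadjusted p under 0.05, as had 6.08% of all rows, and DESeq2 called 0. Between upper horn and body, again 0 were called, beside 0.0232% of all rows (0.0058% higher and 0.0174% lower), with 4 of the 19 genes and 11.2% of all rows at an unadjusted p under 0.05 and 0 genes called by DESeq2. Between mid horn and body 2 genes were called, beside 4.45% of all rows (0.528% higher and 3.92% lower in the mid horn), and 9 of the 19 genes and 28.0% of all rows had an unadjusted p under 0.05. The number of calls over all rows changed with the setting. The 767 rows called fell to 1 without the contralateral mid horn of heifer 10882 and to 1 without the replicate block. They fell to 0 without heifer 10882 or 11070 and to 2 without heifer 11033. They rose to 1835 without heifer 10872, to 1045 without heifer 11110 and to 1228 without the 3 libraries that stood apart. Those 3 include the contralateral mid horn of heifer 10882.

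SEMA4B was the gene that rose in the mid horn. In the order of heifers 10872, 10882, 11033, 11070 and 11110, it stood at 144, 361, 129, 118 and 164 CPM in the contralateral mid horn and at 142, 144, 159, 141 and 201 CPM in the ipsilateral one. In the body of the same heifers it stood at 129, 118, 91.1, 90.4 and 109 CPM. Ranges overlapped slightly across animals, and the mean of the mid horn was above the body in 5 of 5 heifers, by 0.64 ± 0.19 on the log2 scale (adjusted p = 0.0486).

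SEMA4C was lower in the mid horn, at 1.87, 2.64, 1.11, 2.22 and 6.3 CPM on the contralateral side and 1.83, 3.46, 1.62, 2.52 and 2.71 CPM on the ipsilateral side, against 2.56, 9.56, 11.7, 10.7 and 8.91 CPM in the body. The body values of 4 heifers lay above every mid horn value, and that of heifer 10872 did not. The difference was -1.90 ± 0.57 (adjusted p = 0.0493), in 5 of 5 heifers. The other SEMA4C row, with fewer counts, had a log2 fold change of -0.29 and an adjusted p of 0.804. Both calls lay close to the threshold. The number of calls was 0 without the replicate block, 0 without heifer 10882, 11033 or 11070, 1 without heifer 11110 or without the 3 libraries that stood apart (SEMA4C), and 0 without the contralateral mid horn of heifer 10882 alone. DESeq2 called 5 genes, with PLXNB1, PLXNB2 and SEMA3B added, and it called 2714 rows in all (15.7%) against 767.

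Those 3 genes came close: SEMA3B at -1.59 (adjusted p = 0.0703), PLXNB2, the receptor of SEMA4C, at -2.17 (adjusted p = 0.0754) and PLXNB1 at -1.79 (adjusted p = 0.0878), all lower in the mid horn in 5 of 5 heifers. The number of rows with any count moved with the site, from 21002 to 24330 in the mid horn and from 23675 to 26676 in the body. The general epithelium list moved too, with its sum higher in the mid horn in 5 of 5 heifers and 4 of its 8 genes called higher there. The part of either in the calls was not tested.

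**Figure D4:**
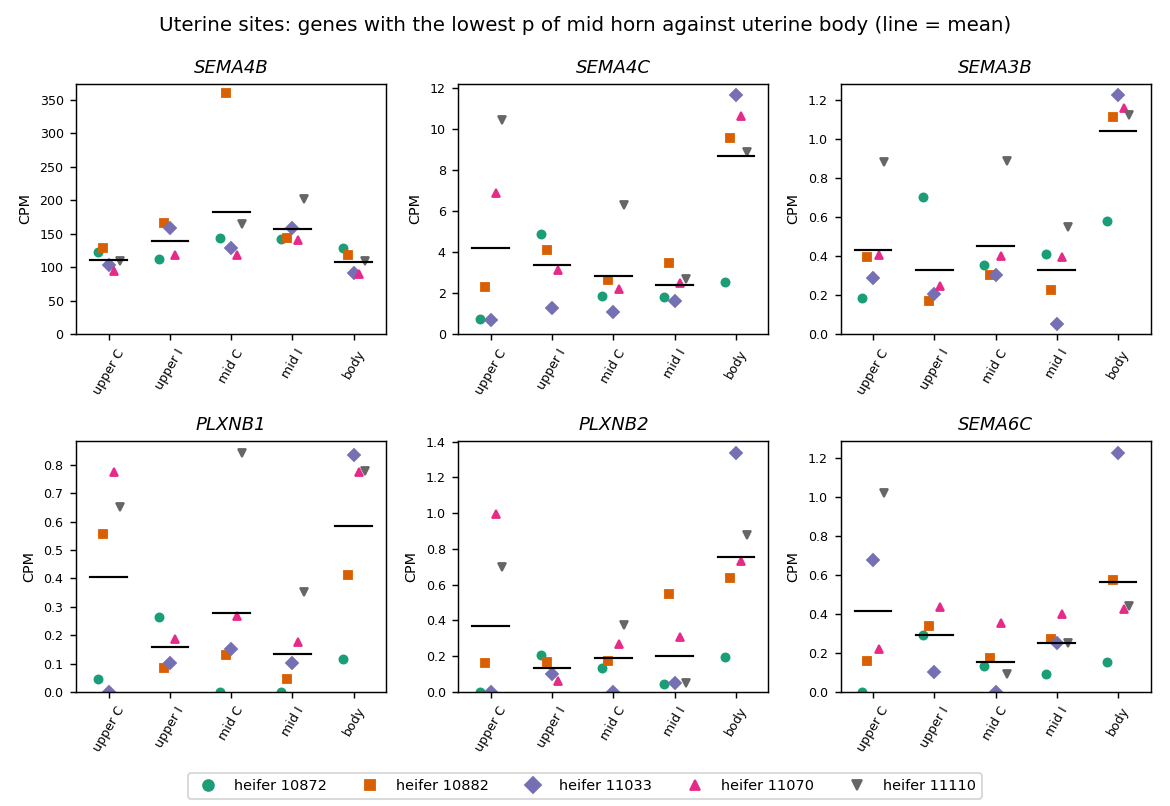
CPM of the 6 genes with the lowest p for mid horn against uterine body, by site and side, with 1 point per library and a line at the group mean. SEMA4C in the body reaches 8.91 to 11.7 CPM in 4 of 5 heifers, and the SEMA4B point at 361 CPM is the contralateral mid horn of heifer 10882.

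Side of ovulation gave no call in the family. The edgeR test called 0 of the 19 genes over all sites (0% of all rows), in the ampulla (0.0174% of all rows), in the upper horn (0.0058%), in the mid horn (0%), and for the difference of the side effect between ampulla and horn (0%). Unadjusted p-values under 0.05 were found for 2, 4, 3, 1 and 5 of the 19 genes, beside 13.3%, 7.25%, 6.89%, 2.98% and 5.32% of all rows, and DESeq2 called 0 of the 19 in each. PLXNA4 had the lowest p over all sites, at 0.81 ± 0.34 on the log2 scale (unadjusted p = 0.0243, adjusted p = 0.333). A fit with no low-count filter, which called 507 of all rows over the sites and 173 in the upper horn, called PLXNA4 higher on the ipsilateral side over the sites, and PLXNA4 and SEMA3D in the upper horn.

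The PLXNA4 levels in the upper horn were 7.21, 8.03, 3.0, 3.06 and 12.8 CPM on the contralateral side and 14.9, 43.2, 8.7 and 13.4 CPM on the ipsilateral side, which has no value for heifer 11110. The ipsilateral value was the higher one in 4 of 4 heifers there, in 4 of 5 in the mid horn and in 1 of 5 in the ampulla. The sides overlapped in the upper horn. The 43.2 CPM of heifer 10882 and the 39.5 CPM in the ipsilateral mid horn of heifer 11033 were the highest PLXNA4 values of all libraries.

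SEMA5A and SEMA3D, chosen for description after their values were seen, showed side differences in the horns. SEMA5A stood at 2.2, 2.46, 0.773, 4.21 and 2.65 CPM in the contralateral upper horn and at 8.41, 7.43, 4.22 and 6.93 CPM in the ipsilateral one. In the mid horn it stood at 1.78, 3.63, 1.21, 2.4 and 2.19 CPM contralateral and at 5.54, 4.5, 11, 3.71 and 3.56 CPM ipsilateral. The ipsilateral value was higher in 4 of 4 and in 5 of 5 heifers. In the upper horn the sides all but touched, at 4.21 CPM contralateral and 4.22 CPM ipsilateral, and they overlapped in the mid horn. The share of all rows whose sides do not overlap was not counted. Over upper and mid horn together, a contrast added after seeing the data, the difference was 1.35 ± 0.33 (unadjusted p = 0.000292, adjusted p = 0.351, with 0% of all rows called).

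SEMA3D stood at 8.56, 5.56, 0.193, 3.98 and 2.42 CPM in the contralateral upper horn and at 9.46, 21.5, 16.2 and 12.1 CPM in the ipsilateral one. The sides lay close, with 8.56 CPM as the highest contralateral and 9.46 CPM as the lowest ipsilateral value, both of heifer 10872. The ipsilateral value was the higher one in 4 of 4 heifers there and in 4 of 5 in the mid horn. The upper horn difference was 1.79 ± 0.59 with an adjusted p of 0.660. In the ampulla SEMA3D had 11 counts on the contralateral and 2 on the ipsilateral side, with both sides at 0 in 2 of 5 heifers, too few to read a direction there. The stromal sum was higher on the ipsilateral side in 3 of 4 heifers in the upper horn and in 5 of 5 in the mid horn, and the smooth muscle sum in 3 of 4 and 4 of 5. Their part in the SEMA5A, SEMA3D and PLXNA4 values was not tested.

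In the ampulla SEMA4B was higher on the ipsilateral side in 5 of 5 heifers, at 852, 651, 584, 536 and 431 CPM against 553, 522, 245, 356 and 379 CPM. The ranges overlapped, and the difference of 0.60 ± 0.21 had an unadjusted p of 0.00892 and an adjusted p of 0.596. SEMA7A was likewise higher on the ipsilateral side of the ampulla in 5 of 5 heifers, with a difference of 0.59 ± 0.42 and an adjusted p of 0.728. SEMA7A was higher on that side in 4 of 4 heifers in the upper horn and in 2 of 5 in the mid horn. The share of all rows with the same direction in 5 of 5 heifers was not counted.

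**Figure D5:**
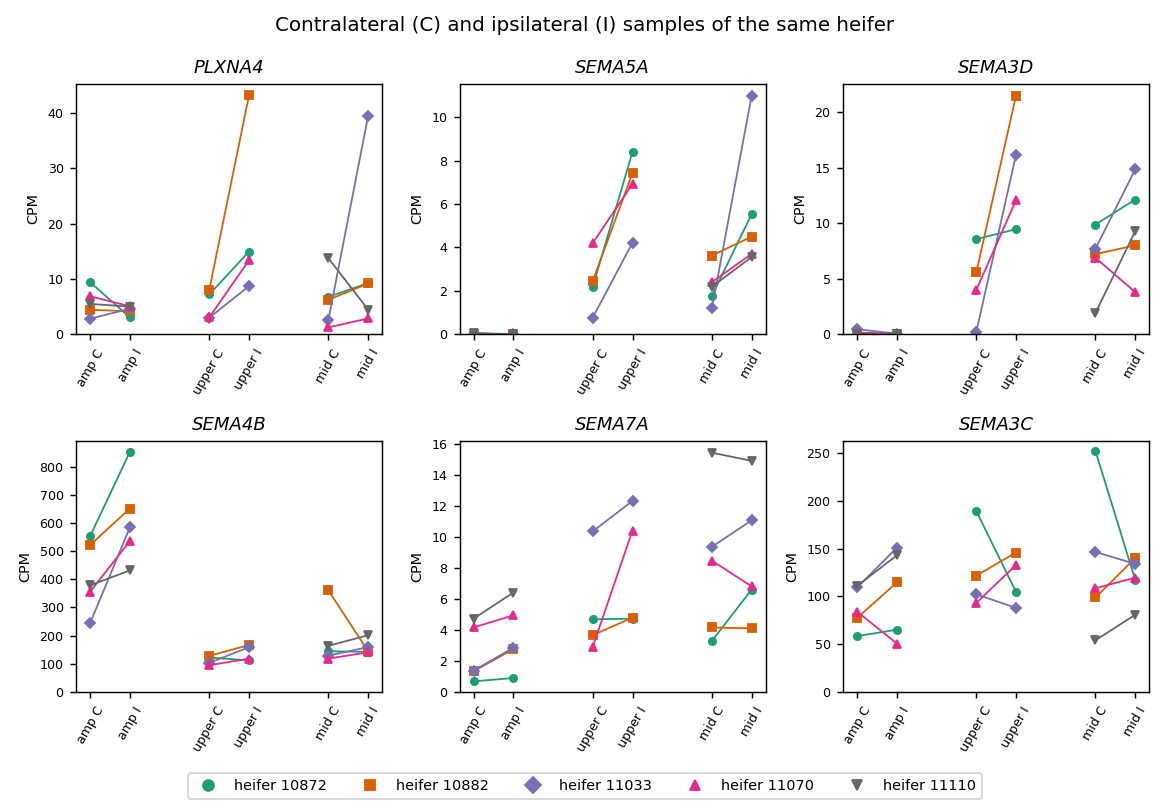
Ipsilateral and contralateral CPM of the same heifer joined by lines, for genes described by side. SEMA5A rises to the ipsilateral side in all 9 horn pairs, and SEMA4B in all 5 ampulla pairs; no gene was called by side.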

How the data were processed

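RNA of 34 libraries was sequenced from a directional library kit, per the labels. The authors deposited whole-number read counts per annotated transcript, not normalised. Per the submitters' processing notes the tools were cutadapt, STAR 2.7.9a, SAMtools and HTSeq, listed with no role or order. The sources used here give neither build nor annotation nor counting mode, so reads shared between transcripts or copies are uncertain. Rows were named with RefSeq (ARS-UCD2.0): 26349 of 38568 rows, holding 91.7% of counts, were matched to a gene.

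The family, its lists and the naming rule were chosen with earlier results of these data known. The naming rule took, per role, up to 3 called genes at either end of the fold change, the highest mean level, all genes called within the uterus or by side, and otherwise the lowest p by side. Tests used edgeR 4.0.16 (quasi-likelihood F test, TMM, filterByExpr, robust fit) in R 4.3.3, with group and heifer as terms. The Benjamini-Hochberg adjustment ran over 17241 rows in each of 9 contrasts, with a threshold of 0.05 on the adjusted p. For the endometrium, upper horn, mid horn and body had equal weight. DESeq2 1.42.0 served as an alternative.

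The heifer block follows the animal number in the sample labels, shared by all sites of an animal. Deviations from group means correlated with a median of 0.207 over 99 library pairs of the same heifer and -0.0539 over 396 pairs of different heifers and groups. The lowest chi-square per row over 66 pairs of libraries within groups was 44.8, so none of these pairs was a duplicate. Pairs of libraries from different groups were not compared in this way. On simulated data, the ampulla comparison recovered 67.8% of genes changed by 1 on the log2 scale and 100% of those changed by 2, in 15905 genes. The side comparison over all sites recovered 75.3% and 100%, in 15879 genes. The simulation gave every gene the same dispersion and placed the side change at every site. It therefore does not give the power of the side tests at single sites, or of genes with a wider spread. The ampulla simulation changed 87 tested genes by 1 and 91 by 2, whereas 64.9% of all rows were called in the data. So it does not show how scaling and test behave when most rows differ. False calls numbered 10 in the ampulla simulation and 5 in the side simulation. Counting intervals are at 95%. Each side difference compares samples of the same animals, with 1 library per site and side.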

Additional observations from a re-analysis of the deposited data

Results flagged for a closer look

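In 110 groups of 4 or 5 libraries with at least 10 counts in the highest one, 15 held a library far from the others by Dixon's 95% critical value, which chance gives in about 1 in 20 groups. Heifer 10872 was highest for NRP2 in the uterine body (44.1 CPM), SEMA3D in the uterine body (11.7 CPM), PLXNA3 in the ipsilateral ampulla (32.7 CPM) and SEMA3B in the ipsilateral upper horn (0.703 CPM). It was lowest for PLXND1 (332 CPM) and SEMA5B (0.229 CPM) in the ipsilateral mid horn and for SEMA3B in the uterine body (0.582 CPM). Heifer 11033 was highest for PLXNA4 (39.5 CPM), SEMA5A (11 CPM) and SEMA3A (0.606 CPM) in the ipsilateral mid horn and for SEMA7A in the contralateral upper horn (10.3 CPM). Heifer 11110 was highest for PLXNA3 (71.3 CPM), SEMA3A (0.560 CPM) and SEMA3B (0.887 CPM) in the contralateral mid horn. Heifer 10882 was highest for SEMA4B in the contralateral mid horn (361 CPM), the library with KRT5 at 454 CPM.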

How the results depend on the processing

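Between ampulla and endometrium, the number of called family genes lay between 11 and 16 over 14 alternatives, at 15 without the replicate block and at 14 without any one heifer. Over the 19 genes, 236 of 261 alternative values kept their direction and side of the threshold, 15 lost the call, 7 gained it and 3 changed sign. Without one heifer, PLXNB2 ran from -0.30 (10872) to 0.54 (11110), with -0.048 without 10882, and SEMA3C from -0.44 (11110) to 0.056 (10872). DESeq2 size factors moved the median of all rows from -0.18 to -0.27. Between mid horn and body, where 2 genes were called, there were 1 with DESeq2 size factors, 5 with the DESeq2 Wald test, 0 without the replicate block, 0 to 2 without one heifer, 1 without the 3 libraries that stood apart, 0 without the contralateral mid horn of heifer 10882 alone (added after seeing the data) and 1 with all rows of a gene summed; the cause was not tested. By side, the fit with no low-count filter called 1 gene over all sites (PLXNA4), 2 in the upper horn and 2 for the difference between ampulla and horn (PLXNA4 and SEMA3D each time), and the other alternatives called 0. The 10 genes with few counts were not tested, and the part of counting by transcript in their low counts was not tested.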
